A study of Mus musculus with 9 samples.

Results

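Cadherins, non-clustered protocadherins, contactins and contactin-associated proteins are cell-surface proteins through which neurons adhere to and recognise other cells. In the count table analysed here, 43 of 22601 genes belonged to these families, taken as every gene whose symbol starts with Cdh, Pcdh or Cntn and a number, or with Cntnap. They comprised 5 type I and 11 type II classical cadherins, 3 other cadherins, 4 delta-1, 5 delta-2 and 2 other protocadherins, 6 contactins and 7 contactin-associated proteins. The cells came from wild-type (WT) B6 mice, whose central amygdala was microdissected from acute slices and dissociated, with cells pooled over slices, and the 9 samples form 1 group with no treatment. The labels give no age. The central amygdala is a forebrain nucleus built largely of GABAergic neurons, and the study set out to describe their transcriptomes, so the comparisons made here are between classes of neurons from the same samples.

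Classical cadherins bind cadherins of the same or a related type on the facing membrane and are tied to actin inside the cell through catenins. Delta protocadherins adhere more weakly, and several bind the WAVE complex, which drives actin branching. Contactins are anchored to the membrane by a lipid and act with partners such as contactin-associated proteins, L1-family proteins, receptor phosphatases and amyloid precursor proteins. In the nervous system combinations of these molecules are known for sorting axons, matching synaptic partners and building the domains that flank the node of Ranvier.

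The table held 829 cells, 85 to 95 per sample, with sample totals of 8522750 to 22730327 counts. A cell was called positive for a gene at 1 or more counts per 10000 of its gene counts, and inhibitory neurons were the 810 cells that reached this for a GABA gene (Gad1, Gad2, Slc32a1) and for no vesicular glutamate transporter gene (Slc17a6, Slc17a7), with a median of 126576 counts. Of 376 barcode sequences 368 occurred in more than 1 sample, and 0 cell names did. Of the genes of other cell types, Gfap, Gja1, C1qa, C1qb, Cx3cr1, Cldn5, Flt1, Pecam1, Ly6c1 and Foxj1 were positive in 0 neurons, while the oligodendrocyte genes Mbp and Cnp were positive in 210 and 38. Sample 5 stood apart, with 29.7 counts per 10000 summed over 6 oligodendrocyte genes against 1.02 to 1.42 in the other samples. In that sample 2 cells positive for Mog or Mag reached 512 and 822, and both were negative for the 6 genes that define the classes below. Cntn2 and Cntnap1, which also serve at myelinated axons, were positive in neither of those cells.

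Of the 43 genes, 8 were common in the inhibitory neurons, at 25% or more of cells positive. The most widespread was Cntn1, an axonal contactin, positive in 69.8% ± 9.04 (mean ± SD over samples, n = 9). Pcdh9 (48.2% ± 8.72), Cntnap2 (47.6% ± 3.93), Pcdh19 (47.1% ± 3.40) and Cdh13 (41.5% ± 4.61) followed. Pcdh17, Pcdh8 and Pcdh7 were positive in 37.3% ± 4.12, 35.9% ± 4.85 and 33.5% ± 6.57. The SDs of neighbours in this order overlapped, apart from Cntn1, whose lowest sample, at 54.9%, was above the mean of every other gene of the families. The Cdh13 mean was below the lowest sample of Pcdh19, 42.1%. Shares depend on gene length and depth as well as on expression, so the order is one of detection. Of these 8 genes 5 are delta protocadherins, Pcdh7 and Pcdh9 of the delta-1 and Pcdh8, Pcdh17 and Pcdh19 of the delta-2 branch.

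Another 15 genes were positive in 5% to 25% of neurons. Among them Cdh4, the retinal or R-cadherin, was positive in 22.1% ± 4.18, Pcdh10 in 17.8% ± 3.19, Cdh22 in 17.6% ± 6.30, Cntn5 in 17.5% ± 4.1 and Pcdh11x in 14.0% ± 3.30. The remaining 20 were positive in under 5%. Of these, Cdh1 (the epithelial or E-cadherin), Cdh17, Cdh20 and Pcdh12 (a protocadherin of endothelium) were positive in 0 of 810 neurons, where 3 counts would give 0.37%, a limit for counting error only. N-cadherin, encoded by Cdh2, showed how the threshold acts, since 47.5% of neurons held at least 1 count of it and 5.80% ± 3.33 were positive.

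**Figure D1:**
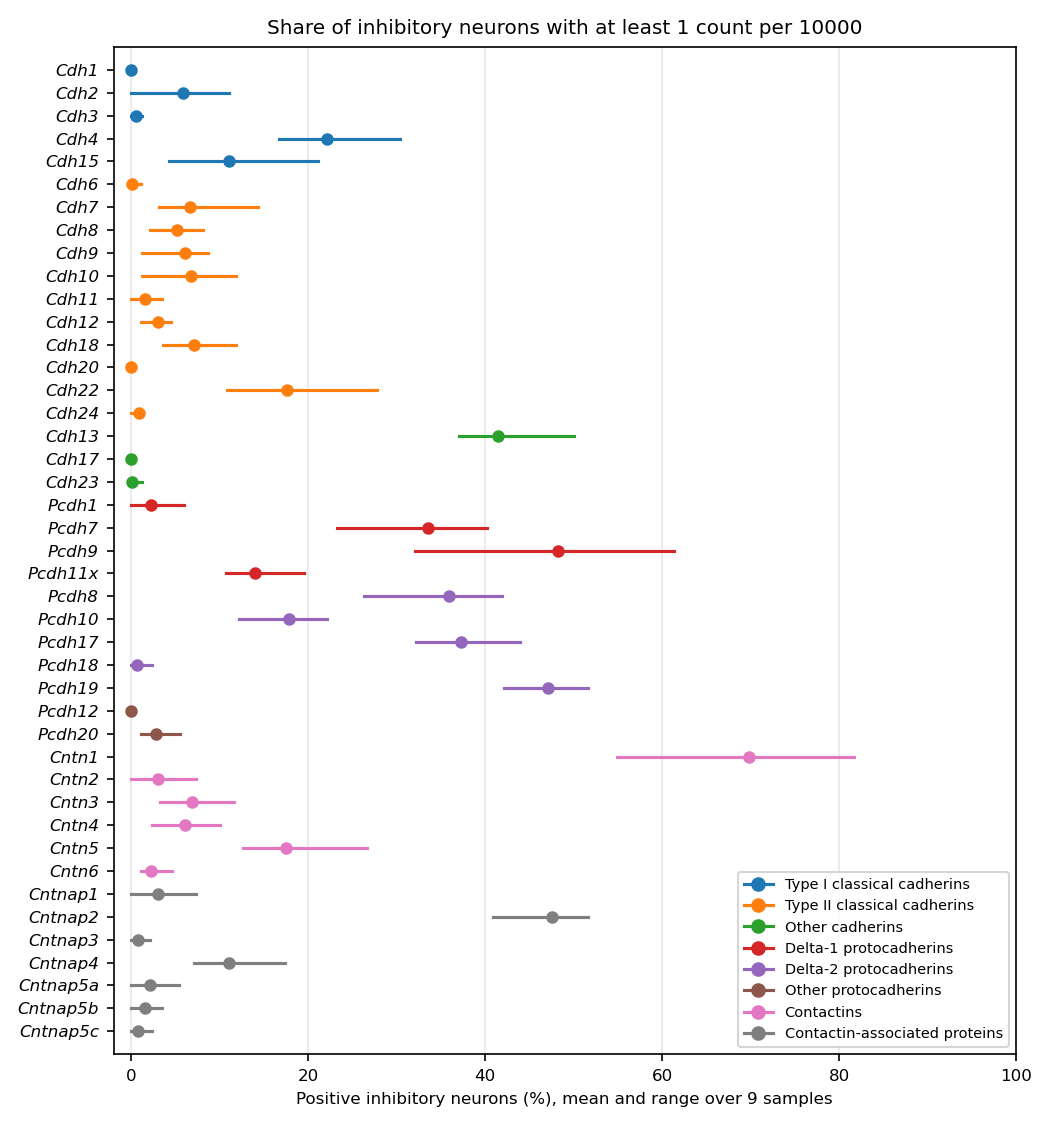
Share of inhibitory neurons positive for each of the 43 genes, in percent on the horizontal axis; points are means and lines run from the lowest to the highest of 9 samples, coloured by family. Cntn1 stands to the right at 69.8%, 7 further genes lie between 33.5% and 48.2%, and 20 lie under 5%.

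On average a neuron was positive for 5.48 ± 0.166 of the 43 genes (SD over samples, n = 9), with single neurons ranging from 0 to 12. Prkcd-positive neurons were positive for 4.93 ± 0.314 and the other neurons for 5.86 ± 0.123. At 50000 counts per cell, a depth that 788 neurons reached, these means were 5.16 ± 0.301 and 6.18 ± 0.188, so the gap remained at equal depth. Isl1-positive neurons had the highest mean, 6.16 ± 0.597 against 5.41 ± 0.180 in the rest. Genes of the families thus overlapped in single cells, and among the 15 of them positive in at least 10% of neurons 105 pairs could be formed. For 2 pairs the log2 odds ratio lay above 0 in every sample, and for 0 pairs below 0 in every sample. Pcdh11x and Pcdh7, both delta-1 protocadherins, were positive together in 58 neurons where independent genes would give 36.7, and the log2 odds ratio averaged 1.37 ± 0.78 over samples (SD, n = 9). Pcdh17 and Pcdh9 shared 173 neurons where 147.0 would be given, a mean of 0.81 ± 0.42. The lowest mean was that of Cdh13 with Cntnap4, at -1.09 ± 0.77, below 0 in 8 of 9 samples, with 22 shared neurons in place of 37.0. Pcdh11x was positive in 6.07% of Prkcd-positive and 19.7% of other neurons, and Pcdh7 in 24.9% and 40.5%. Depth and the mix of classes were not separated from these ratios, which are descriptions and were not tested.

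**Figure D2:**
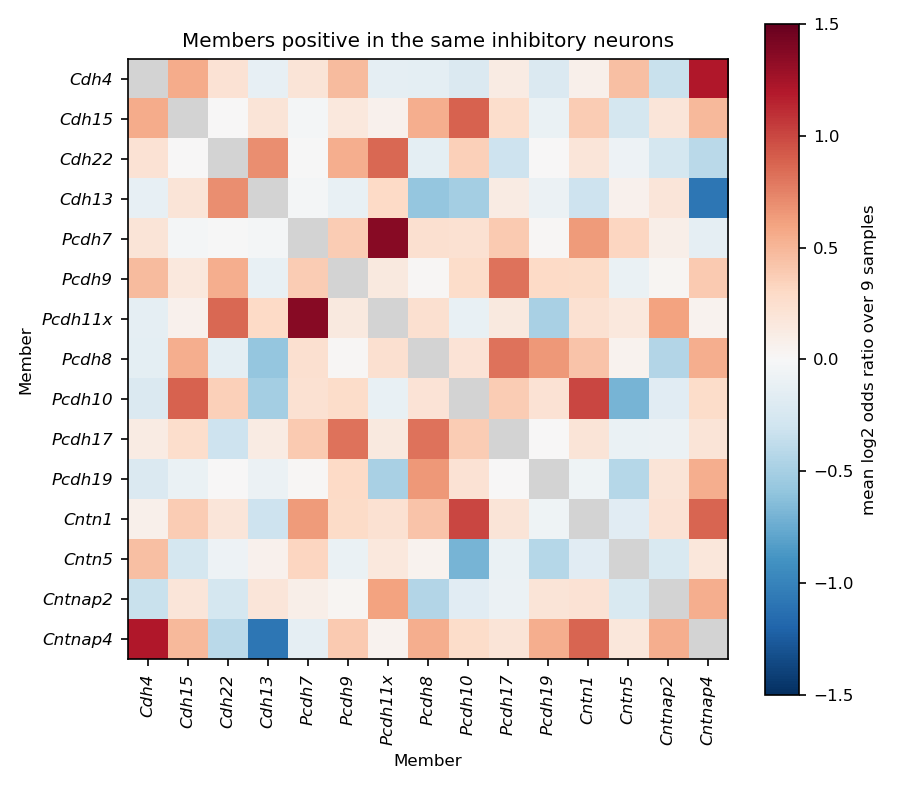
Mean log2 odds ratio over 9 samples that 2 genes are positive in the same inhibitory neuron, for the 15 genes positive in at least 10% of neurons; red marks more shared cells and blue fewer than independent genes would give. Pcdh11x with Pcdh7 (1.37) is the darkest red field and Cdh13 with Cntnap4 (-1.09) the darkest blue one.

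Next, 6 marker genes divided the neurons, each into a positive class and all other inhibitory neurons. Prkcd (protein kinase C delta) was positive in 343 neurons, Cartpt (the CART peptide precursor) in 251, Sst (somatostatin) in 148, Foxp1 (a forkhead transcription factor) in 167, Nr2f2 (the nuclear receptor COUP-TFII) in 116 and Isl1 (a LIM homeodomain factor) in 76. The classes overlap, and the 6 comparisons share cells. Of the Cartpt-positive neurons 204, or 81.3%, were also Prkcd-positive, whereas 23 of 148 Sst-positive neurons were. Counts were summed per sample and class and tested with edgeR's quasi-likelihood test with the sample as a block, and adjusted p-values are Benjamini-Hochberg values over all genes tested. A gene was called at an adjusted p under 0.05. Shares of all genes called are given for this edgeR fit only, so counts under DESeq2 or other settings have no background beside them. Levels below are such sums per 10000 counts, in which fewer positive cells and fewer counts per cell cannot be told apart, so shares of positive cells stand beside them. Of the 43 genes 9 passed the filter on low counts in no comparison, 19 were called in at least 1, and 15 were tested and called in none. A gene with few counts in the positive class could pass this filter through the other neurons, and could then only be called lower. This held for Cntnap1, Cntnap5a, Cntn2 and Pcdh20 with Prkcd and for Cntn4 and Cntn6 with Cartpt. The 32 calls went the same way in each of 3 animal numbers and in each of 3 date fields, and 19 of them in every sample. The same samples gave the calls, so this is a description and no separate support. The matching share over all genes called is not given here. With counts summed per animal number in place of sample, 18 of the 32 calls were kept and 14 were lost. With each sample left out in turn, 24 calls were kept every time.

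**Figure D3:**
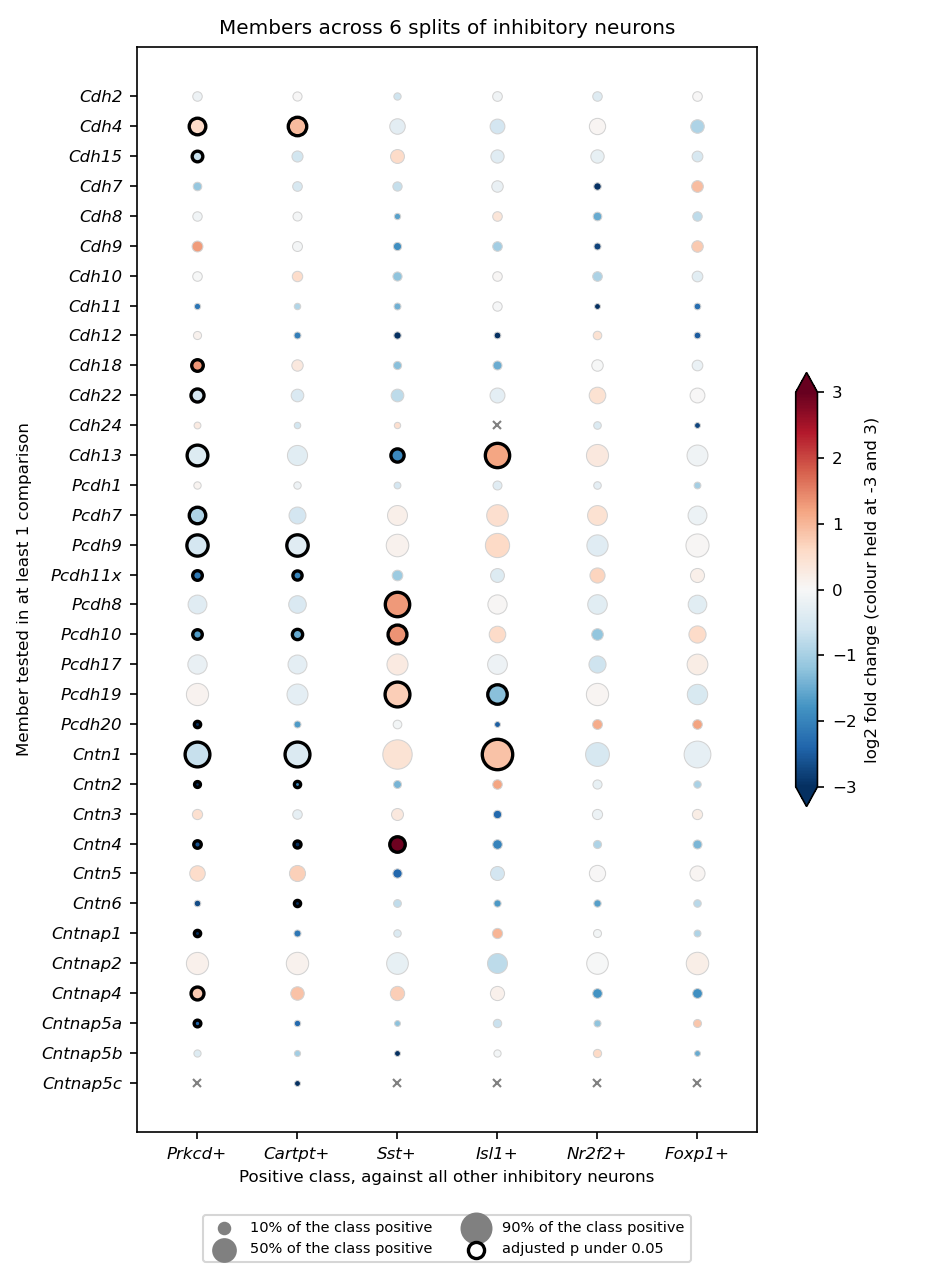
Log2 fold change of each tested gene (colour, held at -3 and 3) in the 6 positive classes against all other inhibitory neurons; dot area follows the share of the positive class that was positive, black rings mark an adjusted p under 0.05 and crosses genes not tested. Rings crowd in the Prkcd column (16), thin out over Cartpt (8), Sst (5) and Isl1 (3), and are missing for Nr2f2 and Foxp1.

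Prkcd-positive neurons, the largest class, had the most calls, mainly of lower levels. Of 33 genes tested 3 were higher and 13 lower, or 48.5% called, where 17.3% of all genes tested were called (7.6% higher and 9.74% lower). Their median log2 fold change was -0.40, against -0.02 over all genes. With any count of Prkcd making a cell positive, 2 of the genes were called, both lower. By family, 3 of 6 contactins, 3 of 4 delta-1 and 1 of 4 delta-2 protocadherins fell, as did 2 of 5 contactin-associated proteins, of which 1 rose. Among the 9 type II cadherins tested 1 rose and 1 fell, and among the 3 type I cadherins likewise.

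Among contactins 3 fell, from the most widespread to the rare ones. Cntn1 had a level of 1.42 to 3.12 (median 2.25) in Prkcd-positive neurons of the 9 samples and of 2.22 to 5.09 (median 3.56) in the others. The ranges overlapped, but Prkcd-positive neurons were lower in 9 of 9 samples, with a log2 fold change of -0.69 ± 0.09 (SE) and an adjusted p of 0.000169 (edgeR). Its share of positive cells was 60.6% ± 11.4 against 76.4% ± 9.77, so most Prkcd-positive neurons still reached the threshold. Cntn2 (TAG-1) and Cntn4 were much rarer and fell further. Cntn2 was positive in 0 of 343 Prkcd-positive neurons, where 3 counts would give 0.875%, and in 25 of the 467 others, with a log2 fold change of -4.93 ± 0.77 (adjusted p = 0.000501, edgeR). Cntn4, which binds amyloid precursor protein, was positive in 8 and 41 neurons and fell by 2.60 ± 0.60 on the log2 scale (adjusted p = 0.00803, edgeR). Both were lower in 9 of 9 samples.

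Cntnap1, or Caspr, is the partner of Cntn1 at the paranodal junction, where it holds the myelin loops to the axon. Its level was 0 to 0.0363 (median 0.00887) in Prkcd-positive neurons and 0.0941 to 0.341 (median 0.217) in the others, with no overlap. The log2 fold change was -4.70 ± 0.59, with an adjusted p of 8.64e-05 (edgeR), the smallest of the 33 family genes tested. Cntnap1 passed the filter on low counts through the other neurons, so it could only be called lower. In the classes 2 Prkcd-positive and 23 other neurons were positive, and the sums held 56 and 1451 counts, with 153 inhibitory neurons holding at least 1 count. Cntn2-positive and Cntnap1-positive neurons, 25 each, shared 2 cells, and 8 of the Cntnap1-positive neurons were Isl1-positive. Cntnap5a also fell, by 2.41 ± 0.73 on the log2 scale (adjusted p = 0.0351, edgeR), though its close relatives Cntnap5b and Cntnap5c make its counts uncertain. Its sums held 116 and 706 counts, and it too could only be called lower. Cntnap4, known from interneurons, went the other way. Its level was 0.253 to 0.691 (median 0.376) in Prkcd-positive neurons and 0.138 to 0.307 (median 0.279) in the others, higher in 8 of 9 samples, with a log2 fold change of 0.78 ± 0.20 (adjusted p = 0.0161, edgeR). Cntnap2 (Caspr2) was positive in 47.9% and 46.7% of the classes and was not called, at 0.16 ± 0.14.

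Of 9 protocadherins tested with Prkcd 5 fell and 0 rose. Pcdh11x, an X-linked delta-1 protocadherin, had a level of 0.0705 to 0.38 (median 0.121) in Prkcd-positive neurons and of 0.438 to 0.946 (median 0.666) in the others. The groups did not overlap, and the log2 fold change was -2.14 ± 0.31 (adjusted p = 0.000298, edgeR), with 6.07% ± 3.15 against 19.7% ± 5.72 of cells positive. The delta-2 protocadherin Pcdh10, which binds the WAVE complex, was also lower in every sample without overlap, at -1.69 ± 0.28 (adjusted p = 0.000824, edgeR) and 5.95% ± 2.36 against 26.3% ± 4.58 positive. The delta-1 protocadherins Pcdh7 and Pcdh9 were lower in 9 of 9 samples by smaller amounts. Pcdh7 stood at -0.92 ± 0.15 (adjusted p = 0.000694) and Pcdh9 at -0.52 ± 0.11 (adjusted p = 0.00318, edgeR) on the log2 scale. Pcdh20, which belongs to no delta branch, was positive in 2 and 21 neurons and fell by 4.02 ± 1.10 (adjusted p = 0.0213, edgeR). Its mean levels, 0.0227 ± 0.0351 and 0.118 ± 0.0483 (SD, n = 9), differed by less than this fold change. The fourth delta-1 protocadherin, Pcdh1, was not called, at 0.07 ± 0.46 (adjusted p = 0.939, edgeR), and was lower in 5 of 9 samples. Pcdh8, Pcdh17 and Pcdh19 were not called either.

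Classical cadherins held calls in both directions. Cdh18, a type II cadherin, had a level of 0.103 to 0.539 (median 0.267) in Prkcd-positive neurons against 0.0556 to 0.199 (median 0.118), higher in 8 of 9 samples. Its log2 fold change was 1.33 ± 0.34 (adjusted p = 0.0147, edgeR), and 10.4% ± 6.52 against 4.32% ± 2.24 of cells were positive. Cdh4 had a level of 0.423 to 1.14 (median 0.922) against 0.419 to 0.881 (median 0.594), higher in 8 of 9 samples, with a log2 fold change of 0.58 ± 0.16 (adjusted p = 0.0246, edgeR). The ranges of both genes overlapped between the classes. Cdh15, the muscle or M-cadherin, (-0.69 ± 0.20, adjusted p = 0.0321), Cdh22 (-0.56 ± 0.17, adjusted p = 0.039) and Cdh13, the lipid-anchored T-cadherin (-0.40 ± 0.11, adjusted p = 0.0221, edgeR), fell, each lower in 8 of 9 samples. The share of Cdh13-positive cells was 41.4% ± 5.77 and 41.5% ± 6.38, so the lower level stood beside a like share.

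Of these 16 calls 5 did not hold with every sample left out. Cdh13 was lost without sample 6 or 7 (adjusted p = 0.0514 and 0.052). Cdh15 was lost without sample 1, 2, 4, 5 or 7 (highest adjusted p 0.0829), Cdh22 without 1, 2, 5, 6, 7 or 8 (0.0882), Cdh4 without 2, 5, 6, 7, 8 or 9 (0.0614) and Cntnap5a without 1, 2, 6, 7, 8 or 9 (0.0863; edgeR throughout). The 6 oligodendrocyte genes summed to 1.39 to 2.15 per 10000 (median 1.48) in Prkcd-positive neurons and 0.68 to 46.8 (median 1) in the others, with Mobp, Mog and Mag positive in 3, 2 and 2 of 810 neurons. Without the 210 Mbp-positive neurons 11 of the genes were called, 1 of them higher, and Cdh15, Cdh18, Cdh22, Cntnap4 and Cntnap5a were lost, at -0.56 ± 0.35, 1.16 ± 0.48, -0.59 ± 0.21, 0.74 ± 0.33 and -2.35 ± 0.88, each within 1 SE of its value in all neurons. The part of these cells in the result was not tested. Within Sst-negative neurons 13 of the 16 calls held and 1 further gene was called, with Cdh15, Cntnap4 and Pcdh20 lost at -0.71 ± 0.29, 0.96 ± 0.35 and -3.61 ± 1.30.

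**Figure D4:**
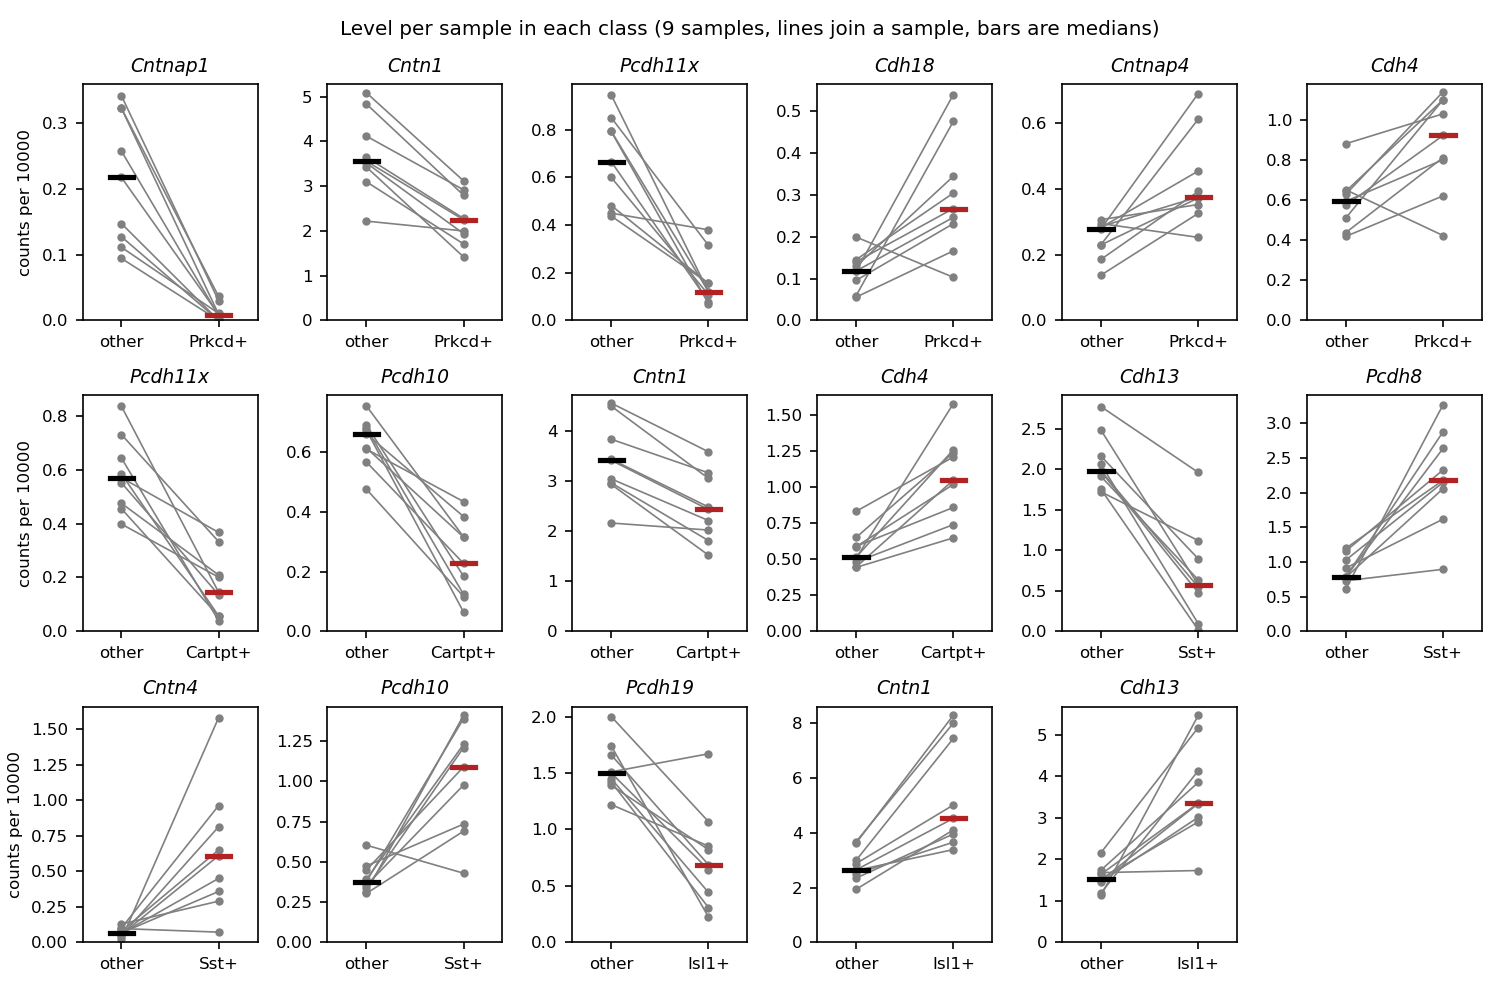
Level of 17 called gene and class combinations, in counts per 10000, in the positive class and in all other inhibitory neurons; each grey line joins the 2 values of 1 of 9 samples and thick bars are medians. Cntnap1 and Pcdh11x separate completely in the Prkcd panels, Pcdh8 rises in every sample in Sst-positive neurons, and Cntn1 and Cdh13 rise in every sample in Isl1-positive neurons.

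Cartpt-positive neurons, most of which were Prkcd-positive, showed Cdh4 higher and 7 genes lower. Of 34 genes tested 8, or 23.5%, were called, where 7.42% of all genes tested were (3.57% higher and 3.85% lower). DESeq2 called 14, with 3 higher and 11 lower, and 0 were called by edgeR with any count of Cartpt making a cell positive. The shares of all genes called in these ways are not given here. The median log2 fold change was -0.46 for these genes and -0.07 for all genes. The calls fell on 4 of 6 contactins, 2 of 4 delta-1 and 1 of 4 delta-2 protocadherins and 1 of 3 type I cadherins, and on 0 of 9 type II cadherins.

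Cdh4 had a level of 0.649 to 1.58 (median 1.05) in Cartpt-positive neurons and of 0.444 to 0.833 (median 0.515) in the others. It was higher in 9 of 9 samples although the ranges overlapped, with a log2 fold change of 0.94 ± 0.14 (adjusted p = 0.000966, edgeR). Its share of positive cells was 32.1% ± 5.44 against 17.5% ± 3.71. By edgeR Cdh4 was the 1 gene of the families called higher with Cartpt, and it was also called higher with Prkcd. Cntn5, at 0.70 ± 0.21 (adjusted p = 0.0585), was higher in 9 of 9 samples and Cntnap4, at 0.87 ± 0.30 (adjusted p = 0.1, edgeR), in 8, and neither was called.

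Pcdh11x had a level of 0.0395 to 0.367 (median 0.145) in Cartpt-positive neurons and of 0.398 to 0.835 (median 0.57) in the others, a log2 fold change of -1.98 ± 0.35 (adjusted p = 0.0028, edgeR). Pcdh10 had a level of 0.0649 to 0.435 (median 0.228) against 0.477 to 0.756 (median 0.662), a log2 fold change of -1.53 ± 0.27 (adjusted p = 0.00323, edgeR). Neither protocadherin overlapped between the classes. Cntn1 had a level of 1.52 to 3.58 (median 2.43) against 2.16 to 4.55 (median 3.41), lower in 9 of 9 samples with overlap, and fell by 0.44 ± 0.08 (adjusted p = 0.00486, edgeR). Cntn6, a contactin that binds the L1-family protein Chl1, was positive in 1 Cartpt-positive and 17 other neurons and fell by 3.98 ± 0.79 without overlap (adjusted p = 0.00687, edgeR). The other 3 calls were smaller or less stable. Cntn4 fell by 4.23 ± 1.05 (adjusted p = 0.0257) and was lost without sample 1, 3, 4, 6, 8 or 9 (highest adjusted p 0.0639, edgeR). Its level was 0 to 0.343 (median 0.0026) in Cartpt-positive neurons and 0.121 to 0.359 (median 0.201) in the others. The mean levels, 0.0604 ± 0.114 and 0.228 ± 0.078 (SD, n = 9), differed by less than this fold change, and 4 and 45 neurons were positive. Cntn2 fell by 1.94 ± 0.54 (adjusted p = 0.0458) and was lost with any sample but 6 left out (highest 0.101), and Pcdh9 fell by 0.37 ± 0.10 (adjusted p = 0.0473) and was lost without sample 1, 2, 4, 5, 6, 7 or 9 (highest 0.111, edgeR). Without the 2 Mog- or Mag-positive cells Pcdh9 was also lost, at -0.33 ± 0.10 (adjusted p = 0.0621, edgeR).

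Because the classes overlap, the Cartpt comparison was repeated within Prkcd-positive neurons. There edgeR called 0 of 24 genes of the families tested, with 2 higher and 1 lower at an unadjusted p under 0.05, and DESeq2 was not run on these cells. Cdh4 kept its direction, at 1.63 ± 0.43 (adjusted p = 0.144), as did Pcdh10 at -2.55 ± 1.02 (adjusted p = 0.464), Pcdh11x at -1.06 ± 0.78 (adjusted p = 0.798) and Cntn1 at -0.32 ± 0.16 (adjusted p = 0.645). Pcdh9 turned to 0.30 ± 0.19 (adjusted p = 0.738, edgeR). Fewer cells entered this comparison, and the calls with Cartpt were not separated from those with Prkcd. Without Mbp-positive neurons 2 genes, Cdh4 and Pcdh11x, were called. The oligodendrocyte genes summed to 1.17 to 2.02 (median 1.49) in Cartpt-positive neurons and 0.902 to 41.4 (median 1.18) in the others, and their part in the result was not tested.

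In Sst-positive neurons 3 of 4 delta-2 protocadherins tested were higher. The largest called log2 fold changes were those of Cntn4, at 2.93, and Cdh13, at -1.93. Of 33 genes tested 4 were higher and 1 lower, or 15.2% called, where 4.53% of all genes tested were (2.26% in each direction). The median log2 fold change was -0.56 for these genes and -0.17 for all genes, and 1.02 for the 4 delta-2 protocadherins. None of 3 type I and 9 type II cadherins, 4 delta-1 protocadherins and 5 contactin-associated proteins tested was called, at unadjusted p under 0.05 6 of the 33 genes being higher and 8 lower. DESeq2 called 5 in each direction, and edgeR 0 with any count of Sst making a cell positive.

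The promoters of the 3 delta-2 protocadherins that rose together are shown here because these genes share a direction in 1 class. Each sequence runs 5′ to 3′ on the gene's strand from 250 bases before to 50 bases after the start of the gene in RefSeq (build GRCm38.p6), and capitals mark matches to the motifs searched. The Pcdh8 window is chr14:79771263-79771562 on the minus strand, the Pcdh10 window chr3:45378148-45378447 on the plus strand and the Pcdh19 window chrX:133688944-133689243 on the minus strand.
Pcdh8: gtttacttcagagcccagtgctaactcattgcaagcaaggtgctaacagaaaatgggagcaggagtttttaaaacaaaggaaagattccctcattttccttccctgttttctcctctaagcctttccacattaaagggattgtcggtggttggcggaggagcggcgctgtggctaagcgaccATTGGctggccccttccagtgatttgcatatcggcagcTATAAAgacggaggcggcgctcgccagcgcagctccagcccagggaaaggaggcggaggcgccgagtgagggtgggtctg
Pcdh10: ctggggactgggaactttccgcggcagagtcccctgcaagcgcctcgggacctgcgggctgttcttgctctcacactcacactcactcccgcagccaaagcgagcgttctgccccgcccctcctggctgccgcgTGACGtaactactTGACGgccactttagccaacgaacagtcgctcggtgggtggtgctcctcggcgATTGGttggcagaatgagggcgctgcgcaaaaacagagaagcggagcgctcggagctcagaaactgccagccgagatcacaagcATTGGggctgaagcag
Pcdh19: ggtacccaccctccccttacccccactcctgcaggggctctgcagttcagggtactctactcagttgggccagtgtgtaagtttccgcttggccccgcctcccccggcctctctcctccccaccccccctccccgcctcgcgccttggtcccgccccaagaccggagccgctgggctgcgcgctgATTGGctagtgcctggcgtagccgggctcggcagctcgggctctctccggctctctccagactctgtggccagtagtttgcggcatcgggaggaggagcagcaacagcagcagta

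Motifs were searched by their letters on both strands, and a match describes the letters only. CCAAT, the box bound by NF-Y and read here on the other strand as ATTGG, occurred in all 3 windows, with its first base 68 bases before the start in Pcdh8, 65 before it in Pcdh19, and 50 before and at base 35 after it in Pcdh10. It occurs in 37.4% of 32851 RefSeq windows of the same length and in 18 of the 29 family genes that have one. TATAAA, the TATA box, occurred in Pcdh8 alone of these 3, with its first base 30 before the start, and occurs in 13.6% of windows. TGACG, the core of the cAMP response element, occurred at 2 places in Pcdh10 and occurs in 20.8% of windows. The 3 windows had 0 matches to AGGTCA, the core letters bound by nuclear receptors such as COUP-TFII, found in 16.3% of all windows. They also had 0 matches to the forkhead motif TGTTTAC (3.6% of windows) and to the homeodomain motif TAATTA (5.3%). The windows held 14, 24 and 18 CpG dinucleotides in Pcdh8, Pcdh10 and Pcdh19, where the median window held 7.

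Pcdh8 encodes arcadlin, a protocadherin induced by neuronal activity that takes N-cadherin off the synaptic membrane. Its level in the 9 samples was 0.896 to 3.27 (median 2.18) in Sst-positive neurons and 0.616 to 1.2 (median 0.79) in the others. Every sample was higher in the Sst-positive class, though sample 4 was low in it, and the log2 fold change was 1.31 ± 0.19 (adjusted p = 0.00147, edgeR). Its share of positive cells was 58.8% ± 13.8 against 30.7% ± 4.1. Pcdh10, which was lower with Prkcd and Cartpt, had a level of 0.43 to 1.41 (median 1.09) in Sst-positive neurons and of 0.304 to 0.604 (median 0.378) in the others. It was higher in 8 of 9 samples, with a log2 fold change of 1.35 ± 0.25 (adjusted p = 0.00731, edgeR) and 33.6% ± 12.2 against 13.7% ± 5.08 of cells positive. Pcdh19, an X-linked gene known for a form of epilepsy, had medians of 2.18 and 1.23 and was higher in 8 of 9 samples, at 0.74 ± 0.15 (adjusted p = 0.00982, edgeR). The fourth delta-2 protocadherin tested, Pcdh17, was not called, at 0.27 ± 0.27.

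Among contactins Cntn4 was higher in Sst-positive neurons. Its level was 0.0723 to 1.58 (median 0.61) in them and 0.0216 to 0.129 (median 0.067) in the others, with sample 4 the one that did not rise. The log2 fold change was 2.93 ± 0.55 (adjusted p = 0.00727, edgeR). Of the 49 Cntn4-positive neurons 32 were Sst-positive, and yet 21.5% ± 13.8 of Sst-positive neurons were Cntn4-positive, against 2.51% ± 1.52 of the others. Cntn1 was not called, at 0.43 ± 0.12 (adjusted p = 0.0598, edgeR), with 86.7% and 65.9% of the classes positive.

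By edgeR Cdh13 was the 1 gene of the families called lower with Sst. Its level was 0.02 to 1.96 (median 0.574) in Sst-positive neurons and 1.72 to 2.77 (median 1.98) in the others, lower in 9 of 9 samples. The ranges overlapped only through the highest Sst-positive sample, and the log2 fold change was -1.93 ± 0.40 (adjusted p = 0.0145, edgeR). Its share of positive cells was 14.7% ± 10.4 against 47.5% ± 3.74. All 5 calls held with each sample left out. Within Prkcd-negative neurons 4 of them held and Pcdh10 did not, at 0.74 ± 0.25 (adjusted p = 0.178, edgeR). Without Mbp-positive neurons Pcdh8 and Cdh13 were called, and Cntn4, Pcdh10 and Pcdh19 were lost at 3.11 ± 0.80, 1.05 ± 0.35 and 0.62 ± 0.21. The summed oligodendrocyte genes had medians of 1.28 and 1.26 in the classes.

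Isl1-positive neurons, the smallest class, had Cntn1 and Cdh13 higher and Pcdh19 lower. Of 32 genes tested 3, or 9.38%, were called, where 4.85% of all genes tested were (1.7% higher and 3.15% lower). DESeq2 called 8, with 3 higher and 5 lower. The median log2 fold change was -0.26 for these genes and -0.34 for all genes. Cntn1 had a level of 3.39 to 8.3 (median 4.53) in Isl1-positive neurons and of 1.94 to 3.68 (median 2.65) in the others, higher in 9 of 9 samples. Its log2 fold change was 0.89 ± 0.11 (adjusted p = 0.000459, edgeR), and 93.3% ± 7.15 against 67.4% ± 9.38 of cells were positive. Nearly all Isl1-positive neurons were thus Cntn1-positive. Cdh13 had a level of 1.73 to 5.46 (median 3.35) against 1.13 to 2.16 (median 1.53), higher in 9 of 9 samples, with a log2 fold change of 1.19 ± 0.18 (adjusted p = 0.00161, edgeR). Cdh13 therefore rose with Isl1 and fell with Sst and, by a smaller amount (-0.40), with Prkcd. Its share of positive cells with Isl1 was 58.4% ± 11 against 39.5% ± 5.20. Pcdh19 had a level of 0.225 to 1.67 (median 0.688) against 1.22 to 2 (median 1.5), lower in 8 of 9 samples, with a log2 fold change of -1.25 ± 0.27 (adjusted p = 0.0159, edgeR).

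The Isl1-positive class also held more counts per cell, with medians of 111000 to 312000 over samples (median 188000) against 96000 to 224000 (median 119000). With every cell thinned to 50000 counts 3 genes were called. In neurons negative for Prkcd and Sst, where 7 samples entered, Cntn1 and Cdh13 were called and Pcdh19 was not, at -0.57 ± 0.30 (adjusted p = 0.548, edgeR). Without Mbp-positive neurons Cntn1 alone was called, Cdh13 standing at 0.98 ± 0.28 (adjusted p = 0.075) and Pcdh19 at -1.24 ± 0.36 (adjusted p = 0.0799, edgeR).

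With Nr2f2 and with Foxp1 no gene of the families was called by edgeR. In Nr2f2-positive neurons edgeR called 0 of 33 genes, where 1.69% of all genes tested were called (0.409% higher and 1.28% lower), with 2 higher and 7 lower at an unadjusted p under 0.05. DESeq2 called 6, all lower, and the share and direction of its calls over all genes are not given here. The smallest adjusted p was that of Cntn1, 0.087, at -0.49 ± 0.13, with 55.8% against 71.8% of cells positive and 8 of 9 samples lower. In Foxp1-positive neurons edgeR called 0 of 33, where 0.229% of all genes tested were called (0.176% higher and 0.0529% lower), with 1 higher and 3 lower at an unadjusted p under 0.05. DESeq2 called 1, which was lower. Cdh4 stood at -0.92 ± 0.30 (adjusted p = 0.315, edgeR) there, lower in 7 of 9 samples. Few genes of any kind were called with Foxp1, so the count of 0 is near the background.

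Genes that work with these families were taken from 5 lists. Beside the counts below, edgeR called 17.3% of all genes tested with Prkcd, 7.42% with Cartpt, 4.53% with Sst and 4.85% with Isl1. Nrxn3 encodes a neurexin, a presynaptic relative of the contactin-associated proteins. It fell by 0.95 ± 0.07 with Prkcd (adjusted p = 9.39e-07) and fell by 0.84 ± 0.08 with Cartpt (adjusted p = 1.43e-05), and rose by 0.99 ± 0.08 with Sst (adjusted p = 5.77e-06, edgeR), in 9 of 9 samples each time.

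Of 12 contactin partners tested in each comparison, 3 rose and 3 fell with Prkcd, 3 fell with Cartpt, 1 rose and 3 fell with Sst and 1 rose with Isl1. Nrcam, an L1-family adhesion molecule, rose by 0.71 ± 0.10 with Prkcd (adjusted p = 0.000245) and fell by 1.16 ± 0.18 with Sst (adjusted p = 0.00262, edgeR). App, the amyloid precursor protein, fell by 0.49 ± 0.05 with Prkcd and fell by 0.37 ± 0.06 with Cartpt. Epb4.1l3, the scaffold that binds contactin-associated proteins inside the cell, stood at -1.39 ± 0.18 and -0.91 ± 0.20. Chl1, which binds Cntn6, fell by 0.55 ± 0.12 with Cartpt (adjusted p = 0.011) and fell by 0.65 ± 0.13 with Prkcd (adjusted p = 0.00388), where Cntn6 was not called, a value added after it was seen, and rose with Isl1 by 1.14 ± 0.14 (adjusted p = 0.000386, edgeR). With Sst, Aplp1 rose by 0.43 ± 0.06 and Aplp2 fell by 0.42 ± 0.08.

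Catenins, which join cadherins to actin, gave 1 higher and 2 lower of 8 tested with Prkcd, 1 higher with Cartpt, 0 with Sst and 1 lower with Isl1. Ctnna1 (alpha-E-catenin) rose by 1.07 ± 0.21 with Prkcd and 0.93 ± 0.26 with Cartpt and fell by 4.24 ± 1.11 with Isl1. Its mean levels with Isl1, 0.049 ± 0.0788 against 0.305 ± 0.0814 (SD, n = 9), differed by less than that fold change. Ctnna2 (alpha-N-catenin) fell by 0.70 ± 0.19 and Ctnnd2 (delta-catenin) fell by 0.33 ± 0.11 with Prkcd. In the WAVE complex, 1 of 7 genes tested was called with Prkcd, Cartpt and Sst each, namely Cyfip2, at -0.45 ± 0.10, -0.42 ± 0.08 and 0.47 ± 0.11. Of 9 other genes of the cadherin superfamily 5 fell with Prkcd, among them Fat3 at -2.05 ± 0.32, Dchs1 at -6.49 ± 1.09 on 48 against 668 counts and the calsyntenin gene Clstn1 at -0.47 ± 0.09. The mean levels of Dchs1, 0.00925 ± 0.0273 against 0.0814 ± 0.0647 (SD, n = 9), differed by less than that fold change. With few counts in Prkcd-positive neurons, Dchs1 could pass the filter on low counts through the other neurons and then only be called lower. With Cartpt 1 of the 9 superfamily genes fell, Clstn1, at -0.41 ± 0.08. With Nr2f2 and Foxp1 edgeR called 0 genes of these 5 lists, with 3 higher and 8 lower of 38 and 2 higher and 5 lower of 39 at an unadjusted p under 0.05.

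**Figure D5:**
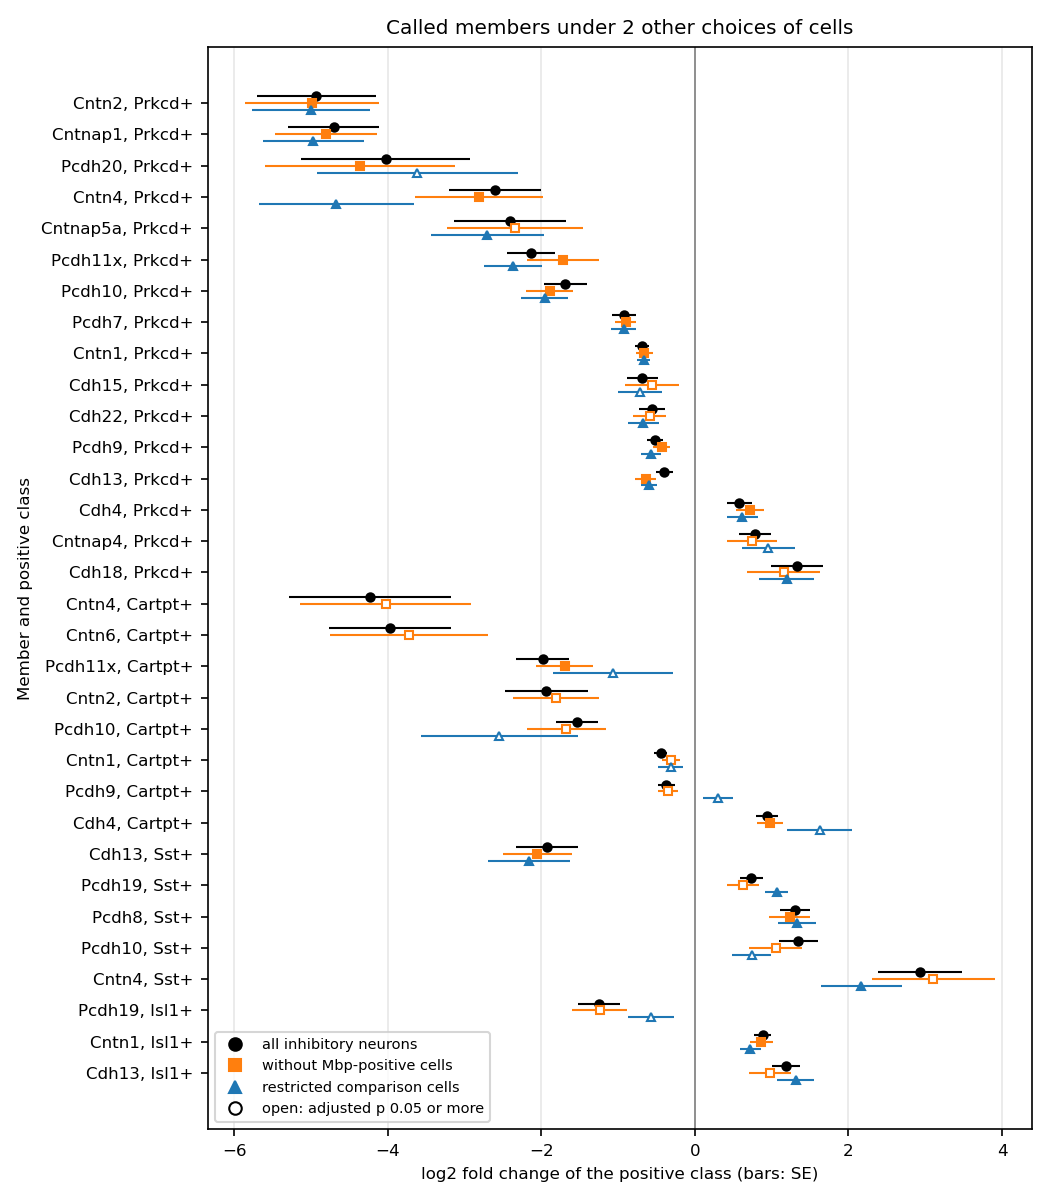
Log2 fold change (horizontal axis, bars are SE) of the 32 called gene and class combinations in all inhibitory neurons (black circles), without Mbp-positive neurons (orange squares) and in restricted comparison cells (blue triangles), with open symbols at an adjusted p of 0.05 or more. Restricted cells are Sst-negative for Prkcd, Prkcd-positive for Cartpt, Prkcd-negative for Sst and negative for both for Isl1; Pcdh9 with Cartpt is the one combination that crosses 0, and Cntn2, Cntn4 and Cntn6 with Cartpt were not tested in restricted cells.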

How the data were processed

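The authors deposited whole-number counts per gene symbol and cell with a table of animal numbers and date fields. The submitters' processing notes name the build NCBIM37 and the tool Seurat. Sources used here do not give the aligner, annotation, strand, molecular identifiers or the treatment of reads matching several genes, so counts may hold PCR copies and intervals cover counting error only. Cells were assigned to samples by their identifiers, and 91 ERCC spike-in rows were dropped. No doublet caller was run, and no cell was removed for low counts (9 neurons had under 20000).

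Sums of counts over the cells of a class in a sample (5 or more cells in both classes) were tested in edgeR 4.0.16 (TMM, filterByExpr, quasi-likelihood fit, sample as a block since both classes come from the same sample; R 4.3.3), with DESeq2 1.42.0 as an alternative. The fit was tested on simulated data. Whether samples are separate animals is not given, so p-values measure the spread between these samples. The genes described, their families and partner lists, classes and tests were chosen with earlier results of these data known, and promoter motifs after the sequences were seen. Every called gene of the families is named, the 3 of smallest adjusted p per direction with levels by sample, and up to 3 called partners per list. Alternatives were other scaling, no filter, no block, other thresholds for a positive cell, thinning, other choices of cells, sums per animal number and each sample left out. Leaving out Mog- or Mag-positive cells was added after the data were seen. Promoters are from RefSeq, for 29 of the 43 genes, without coordinates of the deposited files' build, and 2 list genes (Brk1, Dchs2) were not used here. Some genes that met these rules are not reported here.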

Additional observations from a re-analysis of the deposited data

Results flagged for a closer look

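Of 132 sets of 9 sample values checked, 10 held 1 sample far from the others, measured by its gap to the nearest sample as a share of the range, and chance gives about 1 in 20. Sample 4 accounted for 5 of them. Its Cdh13 level was 2.63 counts per 10000 in inhibitory neurons, against 1.58 to 1.95 in the other samples, and 3.04 in neurons other than Prkcd-positive, against 1.67 to 2.32. Its Cntn2 level was 0.304 in inhibitory neurons, against 0.0315 to 0.157, and 0.366 in neurons other than Cartpt-positive, against 0.0435 to 0.199. Its Cdh4 level in neurons other than Prkcd-positive was 0.881, against 0.419 to 0.651.

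Sample 2 had a Cntn4 level of 0.557 in neurons other than Prkcd-positive, against 0.127 to 0.338, and of 0.343 in Cartpt-positive neurons, against 0 to 0.0966. Pcdh10 in neurons other than Prkcd-positive was 0.429 in sample 6, against 0.653 to 0.831. Pcdh20 in Prkcd-positive neurons was 0.0999 in sample 8, against 0 to 0.0488. The 6 oligodendrocyte genes summed to 29.7 in inhibitory neurons of sample 5, against 1.02 to 1.42.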

How the results depend on the processing

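The 32 calls kept their direction under every alternative run that gave them a value, except Pcdh9 with Cartpt, which turned to 0.30 within Prkcd-positive neurons. Counts of called genes depended most on how a positive cell was defined. The counts below stand without the share of all genes called under each alternative. At any count of the class gene 2 genes were called with Prkcd, 0 with Cartpt, 0 with Sst, 5 with Isl1 and 1 with Nr2f2, and at an unadjusted p under 0.05 edgeR gave 4 higher and 3 lower with Cartpt and 1 higher and 3 lower with Sst. At 3 counts per 10000 8 were called with Sst, 1 with Foxp1 and 0 with Isl1, for which 2 samples entered (1 higher and 1 lower at an unadjusted p under 0.05). DESeq2 called 14 with Cartpt, 10 with Sst, 8 with Isl1, 6 with Nr2f2 and 1 with Foxp1. Without Mbp-positive neurons 2 were called with Cartpt, 2 with Sst and 1 with Isl1, in fewer cells. Within Prkcd-positive neurons 0 were called with Cartpt, and sums per animal number gave 11 with Prkcd, 3 with Cartpt, 4 with Sst and 2 with Isl1, with 14 of the 32 calls lost. With no replicate block 15 were called with Prkcd, 6 with Cartpt, 6 with Sst and 3 with Isl1, and 7 of the 32 calls were lost. Leaving out each sample gave 12 to 16 with Prkcd, 6 to 9 with Cartpt, 5 to 7 with Sst, 3 to 4 with Isl1, 0 to 1 with Nr2f2 (1 without sample 9) and 0 with Foxp1. The remaining counts stayed within 1.5 times, and the cause of these changes was not tested. Cntn2, Cntn6, Cntnap1 and Pcdh20 had at least 1 count in 112, 57, 153 and 65 inhibitory neurons and were positive in 18 to 25, which limits their precision.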
